A study of Mus musculus with 6 samples.

Results

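The potassium channel genes of the mouse were taken as the genes whose symbol on the array platform starts with Kcn, in a study of reeler mouse models. Where a gene had several probe sets the brightest on average stood for it, and genes with a mean signal of 89 or more over the 6 arrays were kept. Of 84 genes with such a symbol 58 were kept, among 11500 kept genes of 18194 named in all. The rule used the overall signal and not the difference between genotypes. Gene expression was measured in total RNA from 1 frontal cortical lobe per animal, on 6 microarrays with 1 array per genotype. The wild type (WT), the Vldlr knockout, the Apoer2 knockout and the double knockout of Apoer2 and Vldlr came from crosses of double heterozygotes. The Dab1 knockout and the Reln knockout came from separate matings of heterozygotes. All animals were 21 days old, untreated, on a mixture of C57BL/6 and 129, and labelled male. The Dab1, Reln and double knockout arrays are the reeler models below, a name from the series title, and the other 3 are called the comparison arrays. No genotype had a replicate, so every p-value below treats arrays of different genotypes as replicates of a class and measures only the spread between these 6 arrays.

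Potassium channels let potassium leave or enter the cell along its gradient. They set the resting potential of a neuron, end the action potential and control how fast a neuron can fire again. Voltage-gated Kv channels open on depolarisation, inward rectifiers (Kir, symbol Kcnj) hold the potential near rest, tandem-pore leak channels (K2P, symbol Kcnk) carry background current, and another group opens with internal calcium or sodium. Auxiliary subunits, which form no pore themselves, change the gating and the surface number of the channels. Reelin, made from Reln, is secreted and steers migrating neurons to their layers. It binds Vldlr and Apoer2, the latter listed under the symbol Lrp8, and Dab1 relays the signal within the neuron.

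The arrays differed in ways that bear on these genes. Signal values were MAS5 signals on a linear scale, the median signal per array was 86.5 to 92.3, and the 27 bacterial control probe sets read at most 28.4 to 39.6. All 58 kept genes read above 39.6 on every array. On the Apoer2 and double knockout arrays Lrp8 read 4.2 and 13.7, against 342.4 to 379.8 on the others. Reln read 79.9 on the Reln knockout array against 1498.3 to 1880 on the others. Vldlr was lower but still measured on the Vldlr and double knockout arrays, at 187.3 and 185.6 against 357.6 to 551.6. Dab1 read 478.5 on the Dab1 knockout array against 516.4 to 626.0 on the others. Which part of each gene was deleted is not stated in the labels. The Apoer2 knockout array stood apart from the others: it read 3705 for Gh against 13.1 to 32.4 elsewhere, and it read 124.9 for Xist against 3368 to 4006 elsewhere and 367.5 for the Y-linked Eif2s3y against 0.6 to 7.7. The other 5 arrays thus went against their labelled sex, and values without the Apoer2 knockout array are given beside the class comparison. The labelled tissue is frontal cortex, but markers of cerebellar granule cells were bright too, with a sum over the 12 kept of 14 markers of 12859 to 16183 on the comparison arrays and 4224 to 5689 on the reeler arrays. Of these markers 8 passed the test lower in the reeler models, where 0.13% of all genes passed in either direction. For 11 the reeler arrays all read below the comparison arrays (8.67% of all genes). No granule marker that was measured was at 0, but some reeler readings were no brighter than the highest bacterial control, 39.6. Zic2, the dimmest with a mean signal of 61.8, read 37.9 on the Dab1, 38.1 on the Reln and 39.6 on the double knockout array. Fat2 read 642.5 on the WT array, and 36.4 on the Dab1, 93.3 on the Reln and 8.4 on the double knockout array. In tissue RNA, fewer cells of a type and less RNA per cell cannot be told apart.

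The reeler models were set against the comparison arrays to see which transcripts the 3 models share. Signals were compared as log2(signal + 28.1) with limma, and a gene was called at an adjusted p under 0.05 over all 11500 genes. Of the 58 potassium channel genes, 0 were called, against 0.13% of all genes. At an unadjusted p under 0.05 there were 6 genes, 1 higher (background 5.23%) and 5 lower (background 5.81%), which is 10.3% of the potassium channel genes against 11% of all genes. The 3 reeler arrays lay wholly above the 3 comparison arrays for 3 genes (background 9.03%) and wholly below them for 4 genes (background 8.67%). Without the Apoer2 knockout array 0 were called, 3 lay wholly above and 7 wholly below, which fewer arrays make easier. The shares over all genes in that fit are not given, so these counts have no background to be read against. With all 6 arrays, the 7 genes of both kinds are 12.1% of the group, against 17.7% of all genes. The difference was below 0 for 34 of 58 genes, or 58.6%, against 48.1% of all genes. The median log2 difference was -0.02 over the potassium channel genes and 0.01 over all genes. The median size of the difference, whatever its sign, was 0.18 against 0.12.

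**Figure D1:**
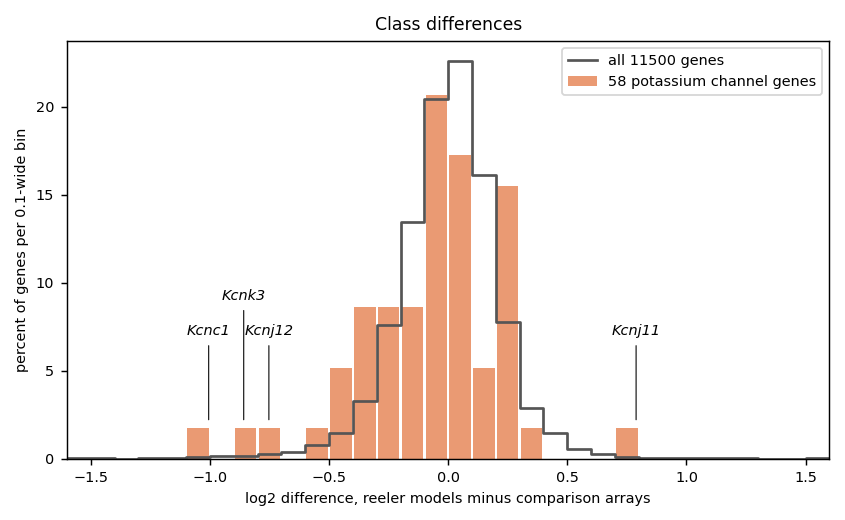
Percent of genes (vertical axis) in bins of the log2 difference between reeler models and comparison arrays (horizontal axis), for the 58 potassium channel genes (bars) and all 11500 kept genes (line). Most bars lie near 0, with Kcnc1 at -1.01, Kcnk3 at -0.86 and Kcnj12 at -0.75 on the low side and Kcnj11 at 0.79 on the high side.

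The lowest difference belonged to Kcnc1, a voltage-gated Kv3 channel that opens and closes fast and lets neurons such as fast-spiking interneurons and cerebellar granule cells fire at high rates. Its signal was 1123 on the WT, 801 on the Vldlr and 959.5 on the Apoer2 array, and 385 on the Dab1, 527 on the Reln and 480.1 on the double knockout array. All 3 reeler arrays read below all 3 comparison arrays, with the Dab1 knockout lowest. The log2 difference was -1.01 (SE 0.15, adjusted p = 0.0604), which is 2.01-fold lower and misses the threshold. Without the Reln knockout array the log2 difference was -1.10 with an adjusted p = 0.04997, just past the threshold, and without the WT array it was -0.89 with an adjusted p = 0.277. Without the Apoer2 knockout array, the only one to match its labelled sex, its adjusted p was 0.267, and Kcnk3, Kcnk12 and Kcnd2 stood at -0.86, -0.52 and -0.38. Kcnc1 has 4 probe sets, and they disagreed. The one with the second highest mean read 448 on the WT, 644 on the Vldlr and 461 on the Apoer2 array, and 474 on the Dab1, 423 on the Reln and 531 on the double knockout array, with the groups overlapping and a log2 difference of -0.10. The third read 353 on the WT, 294 on the Vldlr and 306 on the Apoer2 array, and 266 on the Dab1, 313 on the Reln and 282 on the double knockout array, for a difference of -0.13. The fourth, below the signal minimum, differed by -0.23. With the mean of all 4 probe sets in place of the brightest, the log2 difference was -0.37 (adjusted p = 0.330).

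Kcnk3 encodes an acid-sensitive leak channel that helps to set the resting potential and is known from cerebellar granule neurons. It read 290.4 on the WT, 202 on the Vldlr and 240.2 on the Apoer2 array, and 122 on the Dab1, 140.0 on the Reln and 102 on the double knockout array. The reeler arrays were again all below the comparison arrays, and the double knockout was lowest. The log2 difference was -0.86 (SE 0.16, adjusted p = 0.130), 1.81-fold lower. Its other 2 probe sets had mean signals of 17.8 and 13.8, below the bacterial controls, and give no check.

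Kcnk12, a leak channel gene of the same tandem-pore family with 1 probe set, read 177 on the WT, 190.0 on the Vldlr and 190.0 on the Apoer2 array, and 102 on the Dab1, 140.5 on the Reln and 118 on the double knockout array. The 3 comparison arrays lay close together and the 3 reeler arrays all below them. The log2 difference was -0.53 (SE 0.14, adjusted p = 0.252).

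Kcnd2 encodes the pore of the transient A-type current in dendrites and is abundant in hippocampal neurons and cerebellar granule cells. Its signal was 1682 on the WT, 1592 on the Vldlr and 1595 on the Apoer2 array, and 1409.8 on the Dab1, 1158 on the Reln and 1197 on the double knockout array. The difference was small but ordered by class, at -0.37 (SE 0.09, adjusted p = 0.246) or 1.29-fold lower. In contrast to Kcnc1, its 3 bright probe sets ran together. The next brightest read 846 on the WT, 789 on the Vldlr and 785 on the Apoer2 array, and 672 on the Dab1, 499.7 on the Reln and 536 on the double knockout array. The third read 774 on the WT, 656 on the Vldlr and 696 on the Apoer2 array, and 562 on the Dab1, 467 on the Reln and 445 on the double knockout array. Both had all reeler arrays below all comparison arrays, with log2 differences of -0.49 and -0.51, and the Dab1 knockout was the highest of the reeler arrays on each of the 3. The fourth probe set had a mean signal of 7.2.

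For these 4 genes the reeler arrays all read below the comparison arrays, for Kcnc1 only at the probe set used. They are 6.9% of the potassium channel genes, against 8.67% of all genes, so they are not read as a group. The bases before the annotated start are shown as a description of single genes. RefSeq's promoter table (GRCm38.p6) holds Kcnc1, Kcnk12 and Kcnd2, and the 250 bases upstream of each start are printed 5′ to 3′ along the gene's strand. Capitals mark the GC box GGGCGG and the E box CANNTG on either strand, and in these sequences no GC box overlaps an E box.
Kcnc1 at chr7:46396218-46396467 on the plus strand: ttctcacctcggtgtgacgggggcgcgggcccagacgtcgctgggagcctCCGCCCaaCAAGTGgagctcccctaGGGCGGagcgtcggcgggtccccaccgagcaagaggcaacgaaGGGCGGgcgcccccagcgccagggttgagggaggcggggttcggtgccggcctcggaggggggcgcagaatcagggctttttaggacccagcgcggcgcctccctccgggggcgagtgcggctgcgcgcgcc
Kcnk12 at chr17:87797995-87798244 on the minus strand: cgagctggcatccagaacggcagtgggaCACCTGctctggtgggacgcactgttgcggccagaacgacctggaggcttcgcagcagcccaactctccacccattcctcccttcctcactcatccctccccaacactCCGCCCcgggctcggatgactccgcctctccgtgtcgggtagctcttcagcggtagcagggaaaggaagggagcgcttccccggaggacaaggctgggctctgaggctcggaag
Kcnd2 at chr6:21215096-21215345 on the plus strand: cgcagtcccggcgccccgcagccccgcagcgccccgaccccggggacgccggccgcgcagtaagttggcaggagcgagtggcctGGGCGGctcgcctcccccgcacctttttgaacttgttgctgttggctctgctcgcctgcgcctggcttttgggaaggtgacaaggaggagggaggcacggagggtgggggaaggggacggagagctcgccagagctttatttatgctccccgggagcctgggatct
Kcnc1 had 3 GC boxes and 1 E box, Kcnk12 had 1 of each, and Kcnd2 had 1 GC box and 0 E boxes. Of 32851 promoter windows of this length 32.7% held a GC box and 66.2% an E box, and of the 67 windows of 44 kept potassium channel genes 41.8% and 64.2% did. Neither the TATA box TATAAA, held by 12.4% of all windows, nor the cAMP response element TGACGTCA, held by 1.5%, was found in the 3 windows, also with both strands searched. Of the 67 windows of potassium channel genes 4.5% held the TATA box and 0.0% the cAMP response element. The 3 windows were rich in CG, with 30, 16 and 22 CpG dinucleotides for Kcnc1, Kcnk12 and Kcnd2. The median was 6 over all windows and 7 over the 67 windows of potassium channel genes. These matches describe letters and say nothing of binding.

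Among the members listed as known from cerebellar granule cells, Kcnc1, Kcnk3, Kcnd2 and Kcnj6 were measured. All 4 had a difference below 0 (48.1% of all genes), and 3 of them lay wholly lower (8.67% of all genes), with none called. Kcnc1 was 1 of the 3 only at the probe set used, since its further probe sets overlapped between classes. Kcnj6, a G protein-gated inward rectifier whose mutation kills granule cells in the weaver mouse, read 80.1 on the WT, 128 on the Vldlr and 131 on the Apoer2 array, and 82.9 on the Dab1, 78.2 on the Reln and 85.5 on the double knockout array. Its WT array read as low as the reeler arrays, so the classes overlapped, and the difference was -0.33 (SE 0.18, adjusted p = 0.527). The summed signal of the 4 genes was 2722 to 3176 on the comparison arrays and 1865 to 1999.9 on the reeler arrays, moving the same way as the granule cell markers above. The part of the granule cell content in these differences was not tested. The Purkinje cell markers, from the same cerebellar cortex, summed to 14922 to 15762 on the comparison arrays and 13075 to 15460.2 on the reeler arrays. Of 7 kept markers 0 were called (0.13% of all genes) and 6 were below 0 (48.1%). The 2 wholly lower (8.67% of all genes) were Car8 (-0.43) and Pvalb (-0.31). Pvalb is counted again among the interneuron markers below.

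**Figure D2:**
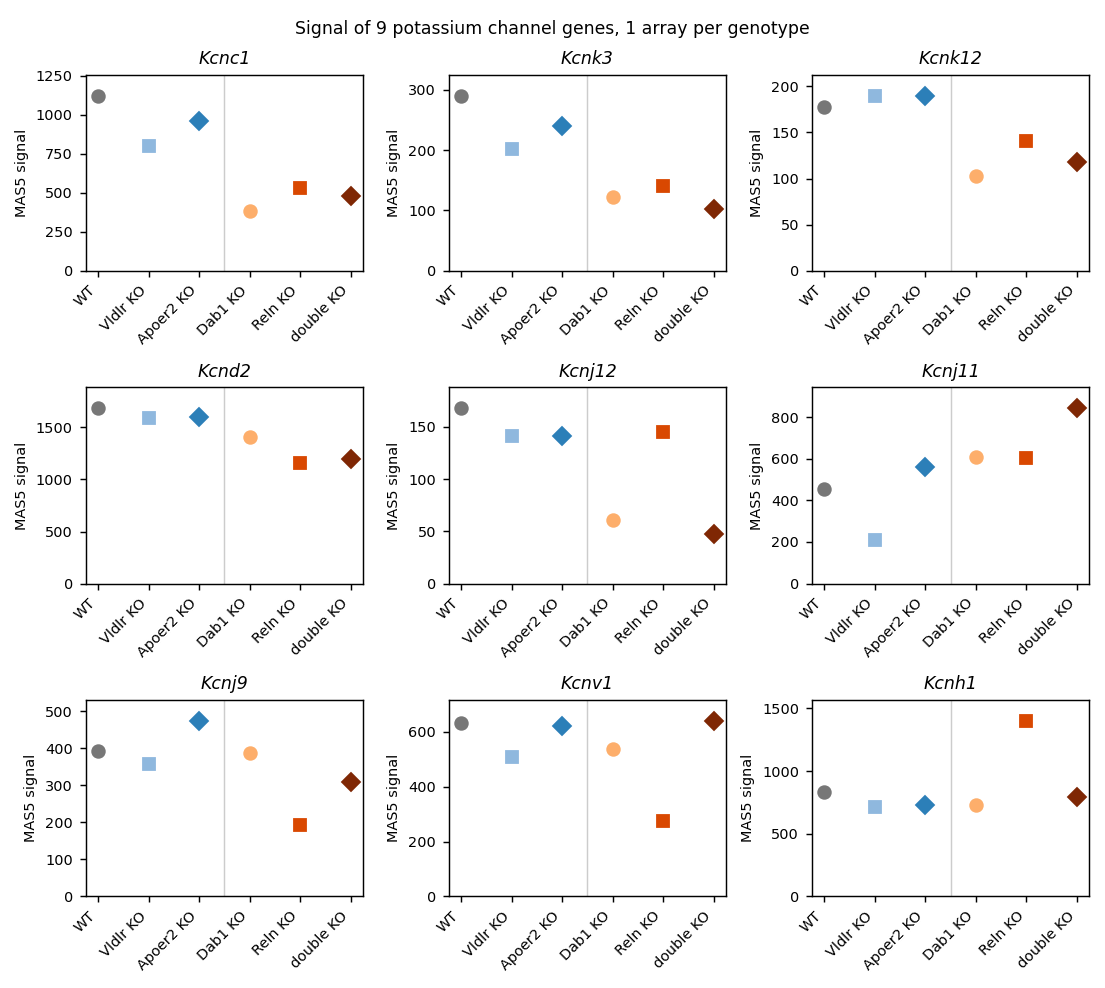
MAS5 signal (vertical axis, linear, from 0) of 9 potassium channel genes on each of the 6 arrays (horizontal axis), with comparison arrays left of the grey line and reeler arrays right of it. Kcnc1, Kcnk3, Kcnk12 and Kcnd2 read lower on all 3 reeler arrays, Kcnj12 on the Dab1 and double knockout arrays, and Kcnj9 and Kcnv1 on the Reln knockout array, where Kcnh1 was highest.

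The inward rectifiers, with 10 kept of 15 genes, held the widest range. Kcnj12, a strong inward rectifier that holds the resting potential, read 168 on the WT, 142 on the Vldlr and 141 on the Apoer2 array, and 61.2 on the Dab1, 146 on the Reln and 47.6 on the double knockout array. The Dab1 and double knockout arrays were low, while the Reln knockout array read like the Vldlr and Apoer2 knockout arrays. The class difference was -0.75 (SE 0.28, adjusted p = 0.414), and without the Reln knockout array it was -1.11 (adjusted p = 0.0699).

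Kcnj11 encodes the pore of the channel that closes when the cell holds much ATP. It read 455 on the WT, 209.8 on the Vldlr and 561 on the Apoer2 array, and 606 on the Dab1, 605 on the Reln and 842 on the double knockout array. All reeler arrays were above all comparison arrays, but the Vldlr knockout array stood far below the others. The difference was 0.79 (SE 0.30, adjusted p = 0.414), 1.73-fold higher, and without the Vldlr knockout array it was 0.40 (adjusted p = 0.416). The other probe set, just past the minimum, read 106 on the WT, 83.5 on the Vldlr and 97.7 on the Apoer2 array, and 99.5 on the Dab1, 90.4 on the Reln and 86.8 on the double knockout array and differed by -0.04. Abcc8, the regulatory subunit that pairs with this pore in neurons, differed by -0.24 (SE 0.14, adjusted p = 0.545), and Abcc9, its relative in muscle and vessels, by 0.05 (SE 0.15, adjusted p = 0.921).

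Kcnj4, another strong inward rectifier, read 344 on the WT, 526 on the Vldlr and 442 on the Apoer2 array, and 542 on the Dab1, 663 on the Reln and 491 on the double knockout array. WT was lowest and the Reln knockout highest, and the difference was 0.36 (SE 0.16, adjusted p = 0.464). Among subunits of the G protein-gated rectifiers, which slow firing when transmitters act on their receptors, Kcnj9 read 391 on the WT, 359 on the Vldlr and 473 on the Apoer2 array, and 386 on the Dab1, 193 on the Reln and 309 on the double knockout array. The Reln knockout array alone was far below the rest, for a class difference of -0.47 (SE 0.22, adjusted p = 0.472). The next brightest Kcnj9 probe set did not share this, with 252 on the WT, 238 on the Vldlr and 286 on the Apoer2 array, and 215 on the Dab1, 233 on the Reln and 355 on the double knockout array. A dimmer one, at a mean signal of 138.8, had the Reln knockout lowest at 94.8 and the Dab1 knockout next at 108.3, for a difference of -0.44. Kcnj3, the usual partner subunit, differed by -0.05 at the probe set used and by -0.39 and -0.34 at the next brightest, which were nearly as bright.

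Genes that mark other cells gave no class difference past the test. Kcnj10 and Kcnj16, which form the potassium-buffering channel of astrocytes, differed by -0.01 (SE 0.12, adjusted p = 0.985) and 0.08 (SE 0.13, adjusted p = 0.849). The astrocyte markers summed to 21970.3 to 24329.9 on the comparison arrays and 20885 to 23896 on the reeler arrays. Of 8 markers 0 were called and 4 were below 0 (48.1% of all genes). By limma 3 had an unadjusted p under 0.05 (11% of all genes), Aqp4 (-0.52), S100b (-0.47) and Slc1a3 (-0.22). S100b and Slc1a3 were the 2 wholly lower (8.67% of all genes). Kcnj13, of choroid plexus epithelium, read 174 on the WT, 110.1 on the Vldlr and 182 on the Apoer2 array, and 141 on the Dab1, 159 on the Reln and 131 on the double knockout array. The Vldlr knockout array was lowest for this gene, and it was lowest for the summed choroid plexus markers as well, with 5698 against 7029.9 to 8524 on the other arrays. Kcne2, an auxiliary subunit of the same epithelium, had a mean signal of 46.8 and was not kept. Kcnj8, of pericytes and smooth muscle, read 77.5 on the WT, 137 on the Vldlr and 88.6 on the Apoer2 array, and 106 on the Dab1, 104 on the Reln and 148 on the double knockout array, with overlapping classes and a difference of 0.20 (SE 0.21, adjusted p = 0.723), and Kcnj2 had a mean signal of 2.9.

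Of the tandem-pore leak channels 0 of 7 kept genes were called and 5 had a difference below 0, where 48.1% of all genes did, with a median log2 difference of -0.40. Besides Kcnk3 and Kcnk12 these were Kcnk4, Kcnk10 and Kcnk1. Kcnk4, a channel opened by stretch and lipids, read 128 on the WT, 248 on the Vldlr and 205 on the Apoer2 array, and 161 on the Dab1, 61.8 on the Reln and 191 on the double knockout array. The Reln knockout array was lowest and WT next, so the classes overlapped, at -0.48 (SE 0.34, adjusted p = 0.610). Kcnk10, of the same stretch-sensitive branch, read 213 on the WT, 163 on the Vldlr and 146 on the Apoer2 array, and 154 on the Dab1, 102 on the Reln and 119 on the double knockout array. WT was highest and the Reln and double knockouts lowest, at -0.40 (SE 0.18, adjusted p = 0.452). Kcnk1 (difference -0.17) and Kcnk2 (0.03) lay nearer to 0. Kcnk6 went the other way without overlap but by little: it read 117 on the WT, 121 on the Vldlr and 113 on the Apoer2 array, and 143 on the Dab1, 143 on the Reln and 141 on the double knockout array, for a difference of 0.24 (SE 0.12, adjusted p = 0.507).

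Among the Kv1, Kv3, Kv4 and Kv7 genes other than Kcnc1 and Kcnd2, differences at the probe set used were at most 0.28 in size. Further probe sets of Kcna2, Kcna6 and Kcnc4 differed more and are given below. The Kv1 genes, which delay firing at axons and terminals, ran from -0.14 (SE 0.11, adjusted p = 0.655) for Kcna2 to 0.28 (SE 0.18, adjusted p = 0.571) for Kcna4, with 5 kept of 7. Kcna1, an axonal channel of the same family, read 2146 on the WT, 1800.5 on the Vldlr and 1978 on the Apoer2 array, and 2014 on the Dab1, 2198 on the Reln and 2290.3 on the double knockout array, and its range over all arrays was narrow. Kcna4, a fast-inactivating channel, read 282 on the Dab1 knockout array and 149 to 205 on the other 5. The Kv3 gene Kcnc2, found with Kcnc1 in fast-spiking interneurons, read 905 on the WT, 975 on the Vldlr and 866 on the Apoer2 array, and 942 on the Dab1, 987 on the Reln and 1015 on the double knockout array. Its arrays overlapped and its difference was 0.10 (SE 0.08, adjusted p = 0.673). Kcnc1 differed by -1.01 at the probe set used, but by -0.10 and -0.13 at its next brightest. The interneuron markers summed to 12667 to 13695 on the comparison arrays and 14253 to 16542 on the reeler arrays. Of 8 markers 0 were called (0.13% of all genes), 3 lay wholly higher (9.03%) and 1 wholly lower (8.67%). By limma 5 had an unadjusted p under 0.05 (11% of all genes), which were these and Vip (0.29, with overlap). The 3 wholly higher were Npy (0.54), Gad2 (0.43) and Sst (0.32). The 1 lower was Pvalb, of the fast-spiking cells, which is the same gene already counted among the Purkinje markers above. It read 2552 on the WT, 2306 on the Vldlr and 2734 on the Apoer2 array. The reeler readings were 2147 (Dab1), 2064 (Reln) and 1905 (double knockout), for a difference of -0.31 (SE 0.09, adjusted p = 0.301). Which of these cell types the Pvalb signal came from was not tested. The other Kv4 genes, Kcnd1 (0.05) and Kcnd3 (0.10), did not share the lower level of Kcnd2. The Kv7 genes Kcnq3 (-0.02) and Kcnq5 (0.05), which carry the M-current that restrains repeated firing, lay near 0.

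The silent Kv subunits, which form no channel alone but alter Kv2 channels, had 6 of 7 kept genes below 0 (48.1% of all genes) and a median of -0.17, with no gene called and none without overlap. Kcng1 was lowest, at -0.41 (SE 0.24, adjusted p = 0.552), and Kcns2 highest, at 0.21 (SE 0.14, adjusted p = 0.578). Kcnv1 read 631 on the WT, 506 on the Vldlr and 621 on the Apoer2 array, and 536 on the Dab1, 275 on the Reln and 638 on the double knockout array. Only the Reln knockout array was low, and without it the class difference was 0.0044 in place of -0.34. In the EAG, ERG and ELK family (symbol Kcnh), Kcnh1 read 831 on the WT, 711 on the Vldlr and 728 on the Apoer2 array, and 728 on the Dab1, 1398 on the Reln and 790.3 on the double knockout array. The Reln knockout array stood above the rest, and the class difference was 0.29 (SE 0.21, adjusted p = 0.624). Without that array it was 0.0073. The lowest of the family was Kcnh7 at -0.22 (SE 0.15, adjusted p = 0.602).

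Of channels opened by internal calcium or sodium 5 of 8 were kept. They ran from -0.24 (SE 0.27, adjusted p = 0.763) for Kcnt2, a sodium-activated channel, to 0.22 (SE 0.15, adjusted p = 0.598) for Kcnn1, a small-conductance calcium-activated channel that hyperpolarises a neuron after its spikes. Kcnma1, the pore of the large-conductance calcium- and voltage-gated channel, differed by -0.10. Its auxiliary subunit Kcnmb2, which inactivates that channel, read 98.6 on the WT, 104 on the Vldlr and 115 on the Apoer2 array, and 133 on the Dab1, 119.6 on the Reln and 122 on the double knockout array. The reeler arrays were all above the comparison arrays at this and at its further probe set, with differences of 0.19 and 0.37 and an adjusted p = 0.603 at the one used. Kcnmb4, the neuronal subunit of the same channel, differed by 0.06.

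The auxiliary subunits numbered 10 kept of 15, from -0.37 (SE 0.24, adjusted p = 0.582) for Kcne1l to 0.23 (SE 0.22, adjusted p = 0.706) for Kcnip1. Kcnip1, which binds Kv4 channels and is common in interneurons, read 452 on the WT, 755 on the Vldlr and 562 on the Apoer2 array, and 847 on the Dab1, 745 on the Reln and 498 on the double knockout array. WT was lowest, the double knockout next, and the classes overlapped. The Kv4 partner Kcnip3, also a calcium-binding repressor, read 579 on the WT, 550.4 on the Vldlr and 503 on the Apoer2 array, and 282 on the Dab1, 797 on the Reln and 435 on the double knockout array. The Dab1 and Reln knockouts stood at opposite ends, so the class difference of -0.22 describes neither. Its other probe set, nearly as bright, read 416 on the WT, 409.8 on the Vldlr and 413 on the Apoer2 array, and 463 on the Dab1, 650.0 on the Reln and 372 on the double knockout array. The Reln knockout was highest there too, but the Dab1 knockout read above all comparison arrays, and the difference was 0.21. The non-coding transcripts Kcnq1ot1 (-0.02), which silences its imprinted neighbours, and Kcnmb4os2 (0.21) overlapped between classes.

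**Figure D3:**
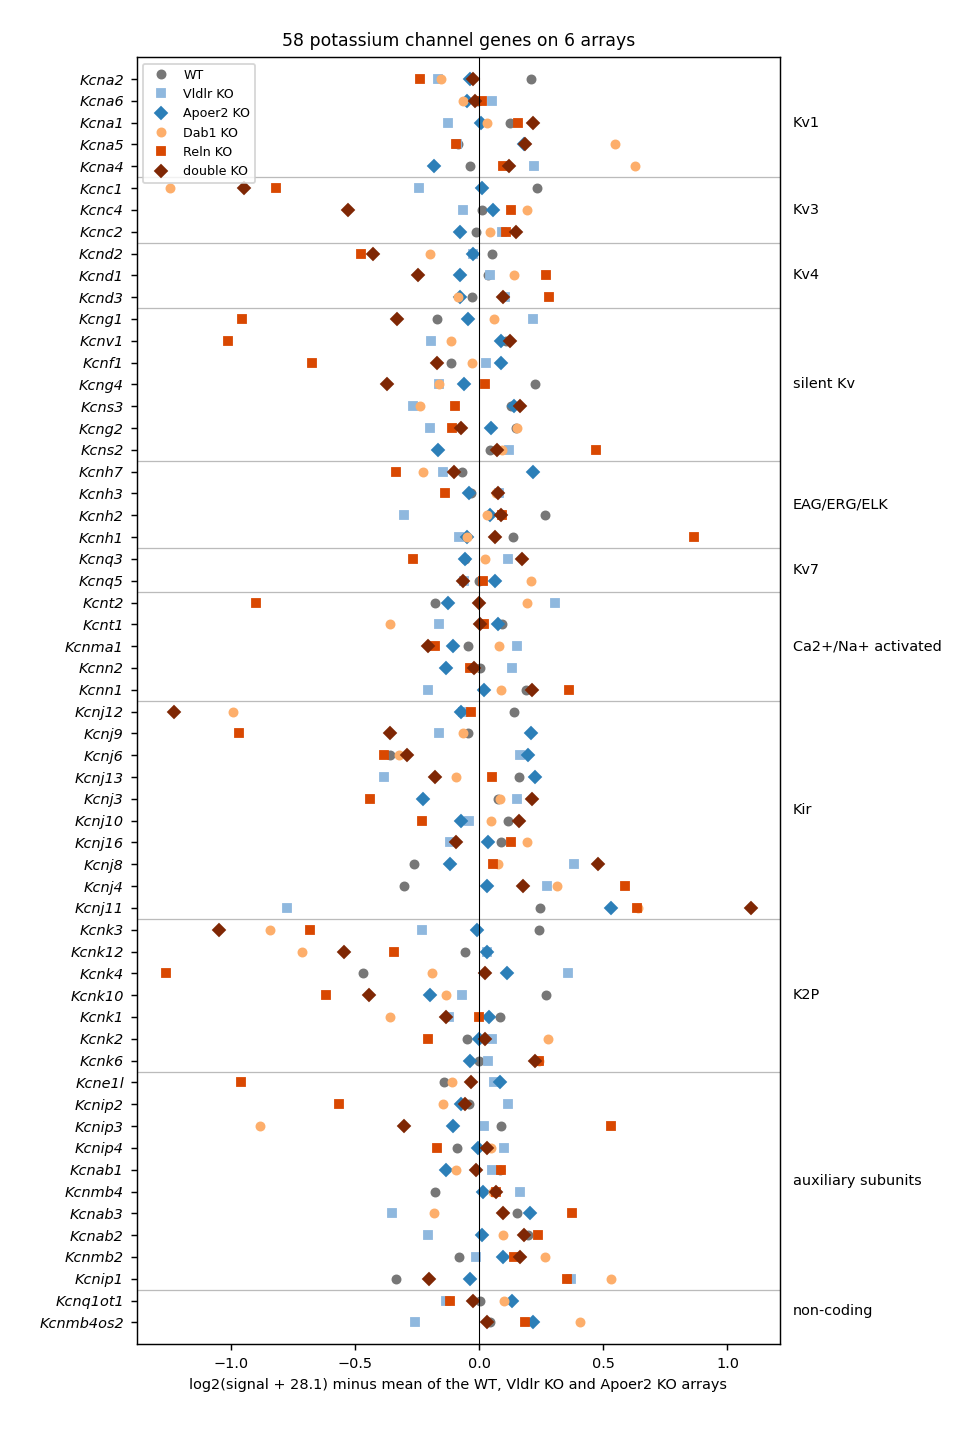
Difference of each array from the mean of the 3 comparison arrays, on the log2(signal + 28.1) scale (horizontal axis), for the 58 kept potassium channel genes (rows, grouped by family). Grey and blue marks are comparison arrays and orange to brown marks reeler arrays, and the Reln knockout array (squares) stands alone on the left for Kcng1, Kcnv1, Kcnt2, Kcnj9, Kcnk4 and Kcne1l.

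The Reln knockout array was the lowest of all 6 for 20 of 58 potassium channel genes, or 34.5%, against 25.2% of all genes. It was the highest for 10, or 17.2%, against 22.1% of all genes. By a rule chosen after the values had been seen, it read at least 1.5-fold below every other array for 6 potassium channel genes, or 10.3%, against 0.913% of all genes, and at least 1.5-fold above for 1, Kcnh1 (background 1.09%). The 6 genes were Kcnv1, Kcne1l, Kcnk4, Kcnt2, Kcng1 and Kcnj9. Kcnv1 was 1.77-fold below the next array, Kcne1l 1.76-fold, Kcnk4 1.74-fold and Kcnt2 1.65-fold. Kcne1l read 136 on the WT, 160.3 on the Vldlr and 163 on the Apoer2 array, and 139.5 on the Dab1, 64.9 on the Reln and 149 on the double knockout array. Kcnt2 read 169 on the WT, 248 on the Vldlr and 176 on the Apoer2 array, and 227 on the Dab1, 91.5 on the Reln and 195 on the double knockout array. Kcng1 read 149 on the WT, 204 on the Vldlr and 165 on the Apoer2 array, and 179.6 on the Dab1, 74.6 on the Reln and 130.1 on the double knockout array. Kcne1l, Kcnk4 and Kcnt2 have no further probe set and that of Kcng1 had a mean signal of 5.0. All 3 Kcnv1 probe sets were lowest on the Reln knockout array. The next brightest Kcnj9 probe set was not, at 233 on the Reln against 215 on the Dab1 knockout array. A dimmer Kcnj9 probe set was lowest on the Reln knockout array, at 94.8 against 108.3 on the Dab1 knockout array. So the low reading of Kcnj9 was not shared by all its probe sets. Without the Reln knockout array the class differences at the probe sets used shrank, for Kcnk4 from -0.48 to -0.084 and for Kcne1l from -0.37 to -0.071. For Kcng1 the change was from -0.41 to -0.14 and for Kcnj9 from -0.47 to -0.21, and Kcnt2 stood at 0.096 in place of -0.24. No other array had more than 1 potassium channel gene that far below the rest, and the 1 was Kcnj11 on the Vldlr knockout array (background 0.252%). With 1 Reln knockout array, a difference of the genotype and of that sample cannot be told apart.

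**Figure D4:**
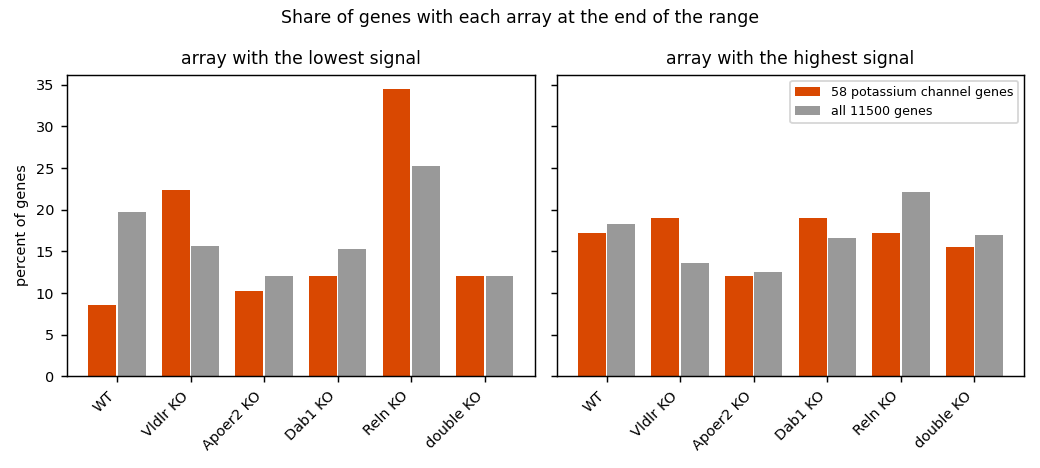
Percent of genes (vertical axis) for which each array (horizontal axis) had the lowest signal (left) or the highest (right), for the 58 potassium channel genes and all 11500 genes. The Reln knockout array was lowest for 34.5% of the potassium channel genes against 25.2% of all genes, and WT for 8.62% against 19.7%; at the highest signal a tie went to the array drawn first.

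Each mutant was also set against the WT array, which has no replicate and is shared by all 5 comparisons. On the Dab1 knockout array 3 potassium channel genes were at least 2-fold lower (background 0.748%) and 0 at least 2-fold higher (0.287%). These were Kcnc1 (2.79-fold), Kcnj12 (2.19-fold) and Kcnk3 (2.12-fold). The Kcnc1 values here and below are those of the probe set used, and its next brightest did not share them. The double knockout array also had 3 at least 2-fold lower (0.591%) and 0 higher (0.339%), namely Kcnj12 (2.59-fold), Kcnk3 (2.44-fold) and Kcnc1 (2.26-fold). On the Reln knockout array there were 2 lower (1.33%), Kcnv1 (2.18-fold) and Kcnc1 (2.07-fold), and 0 higher (1.16%). The Vldlr knockout array had 1 lower (0.478%), Kcnj11 (2.03-fold), and 0 higher (0.243%). The Apoer2 knockout array had 0 lower (0.191%) and 0 higher (0.2%). For this array, the log2 differences of Kcnc1 and Kcnk3 from WT were -0.22 and -0.25, and for the Vldlr knockout both were -0.47.

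At 1.5-fold from WT there were more genes on both sides. The Reln knockout array had 9 potassium channel genes lower (15.5%, background 5.77%) and 3 higher (background 4.65%). Beside those named above, Kcnk10 (-0.89 on the log2 scale) was among the lower, and Kcnj4 (0.89), Kcnh1 (0.73) and Kcnip1 (0.69) were the higher. The Dab1 knockout array had 5 lower (3.84%) and 4 higher (2.54%), the lower ones including Kcnip3 (-0.97) and the higher ones Kcnip1 (0.87), Kcna4 (0.66), Kcna5 (0.63) and Kcnj4 (0.62). The double knockout array had 5 lower (3.22%) and 2 higher (2.28%), the higher ones being Kcnj11 (0.85) and Kcnj8 (0.74). The Vldlr knockout array had 1 lower (2.68%) and 3 higher (1.77%), and the Apoer2 knockout array 0 lower (1.17%) and 0 higher (1.17%). Only Kcnc1 and Kcnk3 were at least 1.5-fold below WT on all 3 reeler arrays (background 0.957%), and 0 were above on all 3 (0.548%). For Kcnc1 this held at the probe set used and not at its next brightest. The second read 448 on the WT, and 474 on the Dab1, 423 on the Reln and 531 on the double knockout array. The third read 353 on the WT, and 266, 313 and 282 on the same arrays.

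Genes with several probe sets allowed a check within the arrays. Of the 84 genes 46 had more than 1 probe set. Past the signal minimum, 32 kept genes had 44 further probe sets, of which 30 ran in the same direction as the one used. Where the difference of the gene was over 0.2 in size this was 13 of 16. Both counts take the direction alone and not the size. The further Kcnc1 probe sets at -0.10 and -0.13 thus count as running with the one at -1.01. No share over all genes is given beside these counts. Over all 102 potassium channel probe sets past the minimum, 11 had the reeler arrays wholly below (background 9.7%) and 5 wholly above (background 7.95%). Several genes with a small difference held a further probe set with a larger one, in either direction. Kcna2 had one that read 801 on the WT, 540.0 on the Vldlr and 579.5 on the Apoer2 array, and 533 on the Dab1, 335 on the Reln and 407 on the double knockout array, with no overlap and a difference of -0.56 against -0.14 at the one used. For Kcnc4 the difference was -0.39 without overlap against -0.07 at the one used. On the high side a further Kcnq3 probe set differed by 0.20 without overlap against -0.02 at the one used, one of Kcnab2, an auxiliary subunit of Kv1 channels, by 0.46 with overlap against 0.17, and the second brightest of Kcna2, against its lower ones, by 0.12 with overlap. The dimmest of 3 Kcna6 probe sets, barely past the minimum, differed by -0.72 with overlap, from 24.5 on the Dab1 knockout to 145.6 on the WT array, while the other 2 differed by -0.02 and -0.0089. These probe sets, like Kcna5, Kcnab2, Kcnip3, Kcnk1, Kcnk2, Kcnk10, Kcnj3, Kcnc4, Kcnd1, Kcnma1, Kcnmb2 and Kcnmb4, were named after their values had been seen.

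**Figure D5:**
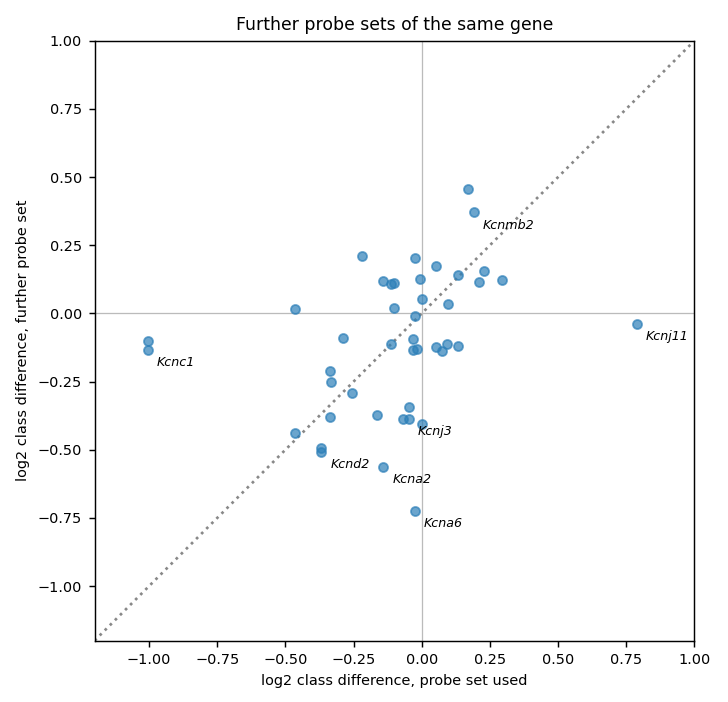
Log2 class difference (reeler models minus comparison arrays) of the 44 further probe sets past the signal minimum (vertical axis) against that of the probe set used for the same gene (horizontal axis). Both further Kcnc1 probe sets and that of Kcnj11 lie near 0 on the vertical axis, and both of Kcnd2 lie near the dotted line of equal values.

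Of the 26 genes that were not kept, 8 read at or under 39.6 on every array. Just inside the minimum stood Kcnj6 (mean signal 97.5), Kcns3 (110.0) and Kcnj8 (110.1), and just outside it Kcna3 (81.0), Kcnk13 (78.9) and Kcnu1 (76.5).

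Genes whose products work with potassium channels were taken from a list of 32, of which 22 were kept. None was called in either direction by limma, 3 had an unadjusted p under 0.05 (11% of all genes), and 12 of 22 had a difference below 0 (48.1% of all genes), with a median of -0.0021 against 0.01 over all genes. Atp1b1, a subunit of the pump that restores the potassium gradient, differed by 0.18 (SE 0.06, adjusted p = 0.359) and Dlg2, a scaffold that clusters Kv channels, by 0.28 (SE 0.11, adjusted p = 0.426), the highest of the list. Cntn2, an adhesion protein beside the node of Ranvier where Kv1 channels gather, was lowest at -0.29 (SE 0.19, adjusted p = 0.586), then Abcc8. Ank3, which anchors channels at the axon's initial segment, had the third unadjusted p under 0.05, at -0.24 (SE 0.10, adjusted p = 0.431). Dpp6 (0.07 (SE 0.08, adjusted p = 0.749)) and Dpp10 (-0.03 (SE 0.09, adjusted p = 0.911)), which join Kv4 channels such as Kcnd2, lay near 0.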

How the data were processed

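Total RNA from 1 frontal cortical lobe per animal was made into biotinylated cRNA with Affymetrix 3' IVT PLUS chemistry, per the labels' protocols. The authors deposited linear signal intensities of 45101 probe sets. The submitters' processing notes name MAS5 and Affymetrix Expression Console without versions. Each array's mean signal, trimmed by 2% at both ends, was 249.4 to 249.5. Their number, 1 array per genotype, limits the precision.

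The platform annotation paired 34958 probe sets with 1 gene, 932 with several and left 9211 unnamed here. Gene IDs of all 84 potassium channel genes matched RefSeq's gene table (GRCm38.p6), and promoter sequences are RefSeq's of that build, found for 44 of the 58 kept genes. Each gene took its brightest probe set by mean signal, with those ending in _x_at left for last outside the Kcn genes, and a mean signal of 89 or more was required. A pseudocount of 28.1, the 25th percentile over the table, was added before taking log2, and the result was fitted with limma 3.58.1 in R 4.3.3 (trended empirical Bayes prior, Benjamini-Hochberg adjustment over 11500 genes, two-sided). Fold changes on this scale understate those of dim genes. The fit was tested on simulated data.

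The genes and lists were chosen with earlier results of these data known. Named genes were all called members, the 6 highest and 6 lowest by class difference, those 2-fold from WT on any mutant array, the members listed for granule cells, choroid plexus, glia, vessels and fast-spiking cells, the highest and lowest of each family, the 3 on each side of the signal minimum, and the 2 highest and 2 lowest partners. Marker lists beside the results cover granule, Purkinje, choroid plexus, astrocyte and interneuron cells. Those of hypothalamus, pituitary, oligodendrocytes, microglia, vessels and excitatory neurons each had 0 genes called. Alternatives were other pseudocounts, filters, normalization and probe set choices, no trend, a cross covariate, a comparison with WT alone, and fits that dropped 1 array at a time.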

Additional observations from a re-analysis of the deposited data

How the results depend on the processing

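Under the 16 alternatives of the class comparison, 0 potassium channel genes were called in limma with the single exception of Kcnc1 without the Reln knockout array, and 0 partner genes were called. Of 523 values of the 34 named kept genes, 493 kept their direction and their side of the threshold, 29 turned in direction and 1 passed it. For each quantity below, the cause was not tested except where fewer arrays or genes change it by construction. With the filter at 297.5, which keeps 34 of the 58 genes, 1 gene lay wholly above, 2 wholly below and 3 had an unadjusted p under 0.05. With WT as the only comparison array 10 lay wholly above and 16 wholly below. Leaving out 1 array, which makes separation easier, gave 3 to 9 wholly above, 6 to 9 wholly below and 0 to 1 called lower. The shares over all genes in these fits are not given, so the counts are not read as a result about these genes. The highest count wholly above came without the Vldlr knockout array, that wholly below without the Vldlr or the Dab1 knockout array, and the 1 call without the Reln knockout array.

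Among counts of genes 2-fold lower than WT, the Reln knockout had 7 with a pseudocount of 1, 0 with 89.4 and 0 with the mean of all probe sets. The Vldlr knockout had 0 with 89.4, with quantile normalization and with the mean of all probe sets, and 2 with no filter. The Dab1 knockout had 1 with 89.4, with the stricter filter, with the mean of all probe sets and against the mean of the comparison arrays. The double knockout had 1 with 89.4, with the stricter filter and with the mean of all probe sets. Among those 2-fold higher, no filter gave 1 each on the Vldlr, Dab1 and double knockouts, and the mean of the comparison arrays as reference gave 1 on the double knockout.

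Some differences turned in direction. Quantile normalization gave Kcnq1ot1 0.018. The mean of all probe sets gave Kcnj16 -0.031, Kcnq3 0.090 and Kcnq5 -0.22. The cross covariate, under which the class difference rests on the double knockout alone, gave Kcnk4 0.023, Kcnip1 -0.20, Kcnv1 0.12, Kcnj10 0.16, Kcnj16 -0.096, Kcns3 0.16, Kcnq3 0.17 and Kcnq5 -0.066, while Kcnc1 stood at -0.95, Kcnk3 at -1.05 and Kcnd2 at -0.43. WT as the only comparison array gave Kcnj6 0.027, Kcnj16 -0.011 and Kcnq3 0.036. Leaving out 1 array in turn, values ran from -0.27 to 0.038 for Kcnj13, -0.091 to 0.10 for Kcnj10, -0.19 to 0.032 for Kcns3, -0.12 to 0.098 for Kcnq3, -0.084 to 0.050 for Kcnq1ot1, -0.025 to 0.11 for Kcnq5, -0.56 to 0.0044 for Kcnv1, -0.45 to 0.096 for Kcnt2 and -1.13 to -0.88 for Kcnc1. No paired analysis was possible because each genotype has 1 array and the labels pair none.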
